A study of Homo sapiens with 12 samples.

Results

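Chromatin accessibility was compared between a line of MDA-MB-453 cells engineered with the Y537S form of estrogen receptor alpha (ER) and a line engineered with wild-type ER (WT), both without doxycycline. The members are genome regions open in both libraries of one line and in neither library of the other, and there were 2108 such regions open in the Y537S line and 2497 open in the WT line among 48589 merged regions. These are called Y537S-line and WT-line regions below. The rule used 4 of the 12 libraries of the series, 1 each of WT untreated, WT with estradiol (E2), Y537S untreated and Y537S with E2. MDA-MB-453 is an established human breast cancer line of luminal and apocrine type. Each line carries an ectopic ER gene that doxycycline (Dox) induces, so the receptor form was not induced on purpose in any of these 4 cultures, and leakage was not measured here. The cells had no Dox (0 ug/mL) and 0 or 1 nM E2 for 2 days. No source used here says whether a line is 1 clone or a pool. The rule used no measured difference beyond openness, but the regions themselves were picked by it, so their openness in these 4 libraries is a description without a test.

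ATAC-seq reads open chromatin through a transposase that cuts accessible DNA and inserts sequencing adapters. Open regions at gene starts are mostly promoters, many of them rich in CpG dinucleotides and shared by most cells, whereas open regions away from starts are often enhancers, which differ more between cells. Luminal breast cells hold open chromatin at genes of transcription factors such as FOXA1 and GATA3. A pileup, the number of fragments that cover a summit, grows with the number of DNA copies of a region as well as with its accessibility, and peak lists cannot tell these apart. In bulk samples, more open cells and more signal per open cell cannot be told apart either.

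The promoters below, all in line-different regions, are shown as CpG-poor examples of members at gene starts, each with fewer CG dinucleotides than the median of its set. They are ALPK1, ZC4H2, STEAP4 and PCDHAC2 for the Y537S line and KRT8 and TFAP2B for the WT line. Each is the stretch of 250 bases before the gene start used here, from RefSeq (GRCh38.p14). The bases run 5′ to 3′ on the gene's strand, and capitals mark CG dinucleotides. The KRT8 start used lies inside the gene's span, so it need not be the main one.
ALPK1 (chr4:112297119-112297368, plus strand): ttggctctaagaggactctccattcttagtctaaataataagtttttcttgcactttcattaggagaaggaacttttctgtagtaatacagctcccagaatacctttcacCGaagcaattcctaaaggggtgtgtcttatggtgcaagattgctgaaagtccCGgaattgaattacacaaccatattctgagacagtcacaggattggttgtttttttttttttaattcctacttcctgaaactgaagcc
ZC4H2 (chrX:64976451-64976700, minus strand): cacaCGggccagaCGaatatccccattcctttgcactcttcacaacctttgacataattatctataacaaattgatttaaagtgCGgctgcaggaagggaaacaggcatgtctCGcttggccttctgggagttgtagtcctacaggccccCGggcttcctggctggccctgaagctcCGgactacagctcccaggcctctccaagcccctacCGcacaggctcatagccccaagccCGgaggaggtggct
STEAP4 (chr7:88306895-88307144, minus strand): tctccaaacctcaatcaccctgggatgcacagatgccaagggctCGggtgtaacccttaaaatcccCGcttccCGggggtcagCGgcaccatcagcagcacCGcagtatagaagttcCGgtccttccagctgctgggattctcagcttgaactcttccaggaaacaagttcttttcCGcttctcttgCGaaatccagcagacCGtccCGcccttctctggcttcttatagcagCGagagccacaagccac
PCDHAC2 (chr5:140966226-140966475, plus strand): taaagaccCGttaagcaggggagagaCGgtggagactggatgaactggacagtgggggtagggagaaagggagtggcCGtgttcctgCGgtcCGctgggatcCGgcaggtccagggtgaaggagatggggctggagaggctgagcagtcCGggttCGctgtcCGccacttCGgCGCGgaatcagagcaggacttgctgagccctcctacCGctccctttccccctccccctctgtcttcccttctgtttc
KRT8 (chr12:52926470-52926719, minus strand): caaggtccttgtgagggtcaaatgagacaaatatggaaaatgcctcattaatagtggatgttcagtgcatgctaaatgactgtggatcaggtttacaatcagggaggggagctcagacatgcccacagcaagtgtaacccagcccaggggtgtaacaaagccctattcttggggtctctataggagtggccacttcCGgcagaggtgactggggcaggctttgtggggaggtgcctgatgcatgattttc
TFAP2B (chr6:50818621-50818870, plus strand): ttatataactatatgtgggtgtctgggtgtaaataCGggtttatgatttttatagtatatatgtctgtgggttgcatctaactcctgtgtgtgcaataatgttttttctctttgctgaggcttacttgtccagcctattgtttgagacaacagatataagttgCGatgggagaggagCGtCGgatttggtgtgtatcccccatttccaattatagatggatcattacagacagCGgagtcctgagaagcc
ALPK1 has 2 CG dinucleotides in this stretch, ZC4H2 8, STEAP4 11, PCDHAC2 13, KRT8 1 and TFAP2B 5.

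The libraries differed in depth, and each peak list was therefore cut to the 47190 peaks of highest −log10 p. The full lists held 47190 summits in WT untreated, 78022 in WT E2, 106291 in Y537S untreated and 118631 in Y537S E2. After the cut the lowest pileup kept was 3, 8, 13 and 14 in the same order, and the pileup just below the cut was 7, 12 and 13 in the latter 3. In these 3 libraries peaks at the lowest pileup kept were tied, and which of them stayed was drawn at random. A call below with a pileup of 8 in WT E2, 13 in Y537S untreated or 14 in Y537S E2 therefore rests on that draw. To set libraries side by side, pileups are also given as a percentage of the library's median pileup at the 10963 regions open in all 12 libraries, a scaled pileup, with medians of 9, 21, 36 and 41. A region without a peak in a full list had a scaled pileup under about 33.3% in WT untreated, 19.05% in WT E2, 11.1% in Y537S untreated and 9.76% in Y537S E2. The names of the peaks carried 3 prefixes, 1 for all 4 Y537S libraries, 1 for WT untreated and WT E2 with all 4 K303R libraries, and 1 for both WT libraries with Dox. If these mark runs, line and run cannot be told apart in any comparison below. The promoters of 7 of 7 luminal and apocrine markers with a start used here (FOXA1, GATA3, SPDEF, XBP1, KRT8, ERBB2 and TFAP2B) had a peak in all 4 libraries. Fibroblast, endothelial and leukocyte markers (0 of 2, 0 of 2 and 0 of 3) had none, and of 4 basal markers only ACTA2 had one, in 3 libraries. For KRT8 the start used lies inside the gene's span, so its peak need not mark the main promoter. The labels give 1 library per line and treatment, and nothing in them says that the cultures were independent. Exact permutation of 2 libraries against 2 could not give a two-sided p below 0.333, so no difference between the lines below was tested, and intervals cover counting error only.

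Regions open in all 4 libraries were far more numerous than line-different ones. Of the 48589 regions, 19791 (40.7%) were open in all 4 libraries, 4.34% were Y537S-line and 5.14% WT-line. When only the untreated libraries were set side by side, 6890 regions were open in Y537S alone, 12158 in WT alone and 23686 in both. With E2 alone the counts were 6910, 7377 and 23682. Members were weak and narrow beside shared regions. Y537S-line regions had a median pileup of 16 untreated and 19 with E2 (scaled, 44.4% and 46.3%), with a highest pileup of 45 and 56. WT-line regions had 5 and 10 (scaled, 55.6% and 47.6%), with a highest of 14 and 33. Regions open in all 4 libraries had scaled medians of 88.9% and 81.0% in WT and 80.6% and 78.0% in Y537S. Median widths were 472.5 bp for Y537S-line, 359 bp for WT-line and 951 bp for shared regions.

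Absence in the cut list was often a weak peak in the full list. Of the Y537S-line regions, 671 had no peak in either full WT list and the other 1437 had one in WT E2, at a median scaled pileup of 33.3% where a summit lay in the region. Of the WT-line regions, 150 had no peak in either full Y537S list, 352 had one in 1 and 1995 in both. Their Y537S summits had scaled medians of 25% untreated and 24.4% with E2, against 55.6% and 47.6% in WT. Which direction held more regions depended on the depth rule. The Y537S-line share of all members was 45.8% at equal list length, 51.2% with pileups thinned to an equal median (1892 against 1806 regions) and 96.5% with all peaks kept (15840 against 574). It was 81.3% when a peak had to cover 50% of a region (7937 against 1827). Leaving out a library loosens the rule: 4053 to 4194 regions were then Y537S-line, and WT-line regions numbered 3594 without Y537S E2, 3652 without Y537S untreated, 5593 without WT untreated and 10255 without WT E2.

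The strongest Y537S-line region lay inside SUN2, which encodes a nuclear envelope protein that links the nucleus to the cytoskeleton (chr22:38751043-38751931, hg38). Its pileup was 40 in Y537S untreated and 40 in Y537S E2, and neither full WT list had a peak there. In libraries that the rule did not use it was 40 and 35 in the Y537S libraries with Dox (alone and with E2), 7 and 7 in the corresponding WT pair, and 6 to 10 in the 4 K303R libraries. All 4 Y537S libraries were thus high at SUN2, with scaled pileups of 97.6% to 129%, and all 8 others low, at 58.8% or less. A region inside EEFSEC, the elongation factor gene for selenocysteine (chr3:128381887-128382587), reached 32 and 37 in Y537S and had no peak in any of the 4 WT libraries. There the Y537S libraries with Dox were lower, at 13 and 7, and K303R ranged from 6 to 11. The region inside SNAP47, a gene of the SNARE family of membrane fusion proteins (chr1:227763672-227764629), had pileups of 28 and 45 in Y537S, then 38 and 31 with Dox, and 6 in WT Dox. It had no peak in the other 3 WT libraries, so all Y537S values stood above all WT values.

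One more of the 12 strongest regions without a WT peak was 40.8 kb from CYBRD1, a ferric reductase gene of iron uptake (chr2:171598777-171599066), with 35 and 28 in Y537S, 18 and 23 with Dox and 8 in WT Dox. The region inside NOS1AP, an adaptor gene of neuronal nitric oxide synthase (chr1:162213237-162213973), had 27 and 33 in Y537S, and its K303R pileups of 7, 15, 13 and 9 overlapped the 11 and 14 of Y537S with Dox. Inside DAB2IP, a Ras-inhibiting scaffold gene (chr9:121609733-121610343), the values were 27 and 29, with 14 and 10 under Dox and 7 and 6 in WT under Dox. The region inside AK5, an adenylate kinase gene (chr1:77313496-77313993), had 26 and 30, then 19 and 17 with Dox, and no peak in any WT library. The same absence from WT held 5.47 kb from SIPA1L2, a gene of a Rap GTPase regulator (chr1:232635652-232636085, 26 and 29 in Y537S). A region 62.5 kb from KLF4, a transcription factor gene of epithelial differentiation (chr9:107422240-107422735), had 26 and 26, then 21 and 13 with Dox, and 7 and 9 in WT with Dox. The other 3 regions lay over 100 kb from any gene end, on chromosome 22 (chr22:48254177-48254921, 28 and 40), chromosome 1 (chr1:229114021-229115091, 27 and 30) and chromosome 11 (chr11:42239007-42239473, 27 and 27). Over the 12 regions, 11 had a peak in both Y537S libraries with Dox, 3 in both WT libraries with Dox and 8 in untreated K303R. In 9 of the 12 both scaled Dox values of Y537S exceeded both of WT. A missing peak was ranked below any listed one, here and in the like counts below. At EEFSEC the scaled value in Y537S Dox+E2 (22.6%) lay under the lowest that WT Dox+E2 could list (23.5%), so the order there is not known.

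**Figure D1:**
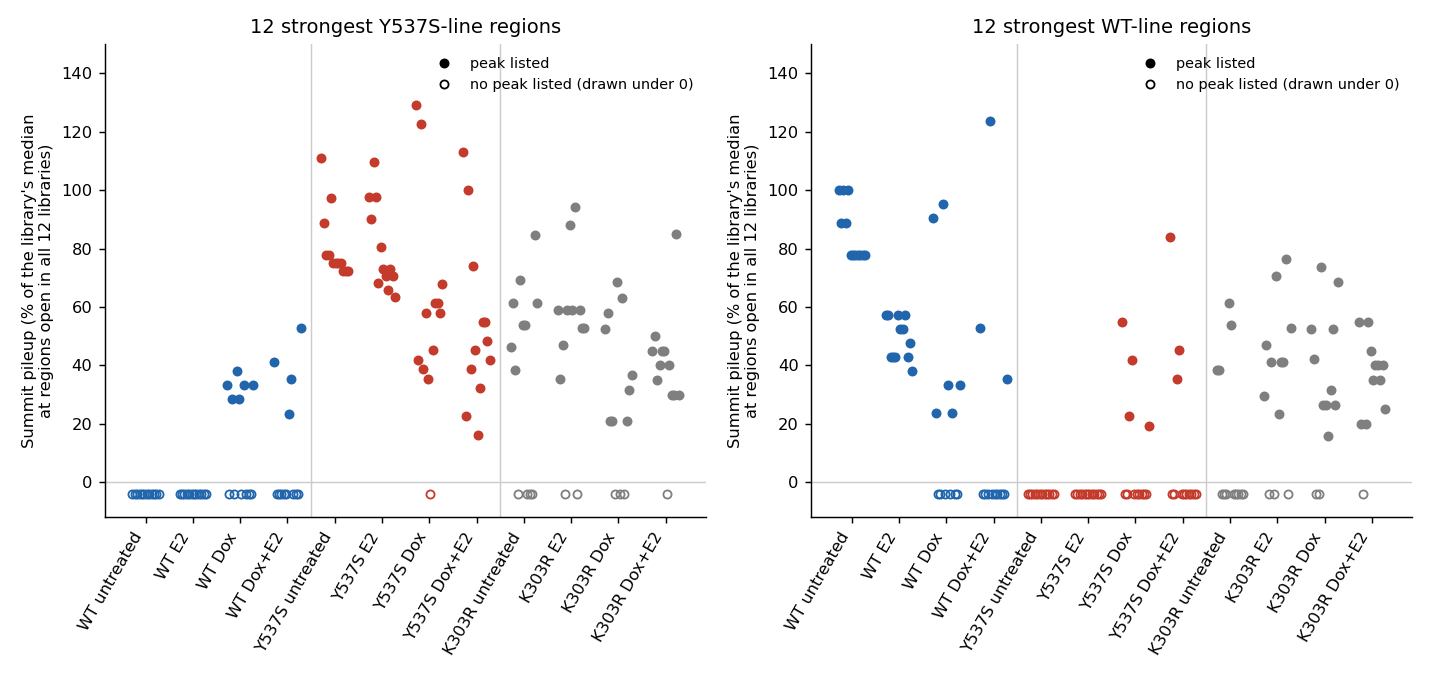
Scaled summit pileup (percent of each library's median at regions open in all 12 libraries, vertical axis) in the 12 libraries (horizontal axis) at the 12 strongest Y537S-line (left) and WT-line (right) regions that had no peak in the full lists of the other line without Dox. Each point is 1 region, open circles mark no listed peak, and the first 2 WT and first 2 Y537S libraries are those the rule used. Of the left-hand regions 11 of 12 had a peak in both Y537S libraries with Dox and 3 of 12 in both WT libraries with Dox.

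At gene starts, the strongest Y537S-line regions without a WT peak were 8 promoters, and none of them had a peak in untreated K303R either. That library had the shortest list of the 12, and its lowest listed pileup was 38.5% scaled. All 8 promoters had a peak in K303R Dox and in K303R Dox+E2, and 5 had one in K303R E2. CAMSAP1, a gene of a microtubule minus-end protein (chr9:135906568-135908593), had pileups of 25 and 26 in Y537S and 15 and 22 with Dox, but also 16 and 12 in WT with Dox. Scaled, the Dox values at CAMSAP1 were 48.4% and 71.0% in Y537S against 76.2% and 70.6% in WT. ZC4H2, a zinc finger gene (chrX:64976356-64976621), had 21 and 25, then 13 and 20 with Dox, with no peak in any WT library and 5 to 6 in 3 K303R libraries. PTPRU, a receptor tyrosine phosphatase gene (chr1:29236105-29237025), had 21 and 20. ALPK1, a kinase gene of the sensing of bacterial sugars (chr4:112296941-112297470), had 19 and 27, then 18 and 19 with Dox, and again no peak in any WT library. At ALPK1 and ZC4H2 all 4 Y537S values therefore lay above all WT and K303R values. The start of GPX8, a peroxidase gene of the endoplasmic reticulum within the span of CDC20B (chr5:55159725-55160259), had 19 and 22. CERKL, a ceramide kinase-like gene (chr2:181656480-181656946), had 18 and 37. ZNF317, a zinc finger gene (chr19:9140218-9140525), had 21 and 18. GRB14, an adaptor gene of the insulin receptor (chr2:164620781-164621988), had 17 and 18, and 7 and 7 in the Y537S libraries with Dox against 6 in WT Dox. Scaled, these Dox values at GRB14 were 22.6% and 22.6% against 28.6%, so WT Dox was then the higher. In 4 of the 8 both scaled Dox values of Y537S exceeded both of WT.

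The strongest WT-line regions without a Y537S peak had pileups of 12 or less in the shallower WT libraries. A region 5.64 kb from TMEM9, a lysosomal membrane protein gene (chr1:201176951-201177353), had pileups of 9 and 12 in WT untreated and E2 and no peak in Y537S untreated or E2. With Dox it was open in every library, at 19 and 9 in WT and 17 and 26 in Y537S, so the lines overlapped there. A region 43.5 kb from BCL11A, a repressor gene of fetal globin (chr2:60597361-60597625), had 9 and 9 in these WT libraries and no peak in any of the other 10. The region 19.2 kb from MRPS33, a mitochondrial ribosomal protein gene (chr7:140983175-140983646), had 8 and 12, then 5 in WT Dox, no peak in any Y537S library and 4 to 8 in K303R. Inside TUFT1, the tuftelin gene (chr1:151578564-151579327), the values were 7 and 12, with 5 to 12 in K303R and no peak in Y537S or in WT with Dox. The same pattern held inside VAMP5, a SNARE gene (chr2:85591062-85591472, 7 and 11), except for a pileup of 7 in WT Dox. A region on chromosome 3, over 100 kb from any gene end (chr3:193870448-193871336, 9 and 9) had 20 and 21 in WT with Dox and 13 and 14 in Y537S with Dox. The rest lay near CDV3 (chr3:133527423-133527677), UBE2H, a ubiquitin-conjugating enzyme gene (chr7:129802051-129802467), LGI1, a synaptic protein gene (chr10:93753583-93753928), and ANKRD17 (chr4:73283347-73283800), and inside LOC124900868 (chr4:105169438-105169725) and GPHN, the gephyrin gene of inhibitory synapses (chr14:67232254-67232559). Scaled pileups over the 12 regions ranged from 77.8% to 100% in WT untreated and from 38.1% to 57.1% in WT E2. Of the 12, 8 had no peak in either Y537S library with Dox, 3 had a peak in both WT libraries with Dox, and 2 had both scaled WT Dox values above both of Y537S. Of these WT-line regions 2 lay at gene starts. IL20RA, an interleukin-20 receptor gene on chromosome 6 (chr6:137045250-137045677), had 6 and 9 in WT, 8 and 6 in WT with Dox, no peak in any Y537S library and 8 to 16 in K303R. RAD50, a DNA repair gene (chr5:132557463-132557821), had 5 and 8 in WT but 16 and 16 in Y537S with Dox against 8 and 8 in WT with Dox.

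Members lay away from gene starts more often than shared regions did. The summit was within 1 kb of a protein-coding gene start in 7.97% of Y537S-line regions (168, exact 95% interval 6.85 to 9.21%) and in 4.85% of WT-line regions (121, 4.04 to 5.76%). The share was 31.7% of regions open in all 4 libraries and 17.8% of all regions. At 2.5 kb the shares of the 2 sets were close, 10.96% and 10.9%. Between 47.1% and 53.2% of each of these sets lay inside a protein-coding gene, and the median distance to a start was 54.3 kb for Y537S-line, 47.0 kb for WT-line and 15.3 kb for shared regions. These shares moved with the depth rule: with thinned pileups 14.3% of Y537S-line and 8.47% of WT-line regions were within 1 kb of a start. Leaving out Y537S untreated turned the order, with 6.78% of Y537S-line and 7.75% of WT-line regions.

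The 8 libraries outside the rule showed how far the members held with Dox and in the K303R line, an engineered line of the same cells with another ER mutation. At equal list length (39522 peaks in untreated K303R, which had fewer), Y537S-line regions were open in 36.9% of cases in Y537S Dox and 36.4% in Y537S Dox+E2, against 28.8% and 24.3% in the WT libraries with Dox. All merged regions were open in 43.4% and 43.2% of cases in these Y537S libraries and in 50.7% and 45.8% in these WT libraries. At equal list length both kinds of member were thus open less often than the average region in each of the 4. That average includes the 40.7% of regions open in all 4 libraries of the rule, which members are not by definition. Regions open in 1 of the 4 libraries of the rule were open in 12.8% and 12.3% of cases in these Y537S libraries and 15.7% and 13.0% in these WT libraries. Both kinds of member lay above these shares, WT-line regions only slightly so in Y537S. WT-line regions were open in 13.9% and 14.2% of cases in Y537S Dox and Dox+E2, against 36.1% and 27.0% in WT. Most members thus did not repeat as strong peaks in the same line with Dox. With full lists, Y537S-line regions had a peak in 85.1% and 85.5% of cases in Y537S Dox and Dox+E2, and 59.4% and 39.2% in WT. For all merged regions these full-list shares were 77.8% and 77.8% in Y537S, and 71.3% and 56.9% in WT. WT-line regions had 56.5% and 58.7% in Y537S, and 67.2% and 42.4% in WT. At equal list length, 184 of the Y537S-line regions (8.73%, exact 95% interval 7.56 to 10.0%) were open in both Y537S libraries and neither WT library with Dox, while 57 (2.70%) showed the reverse. Of all merged regions 2.67% and 4.87% did so. Of the WT-line regions 237 (9.49%, 8.37 to 10.7%) were open in both WT and neither Y537S library with Dox, and 27 (1.08%) showed the reverse. WT-line regions were more often open in K303R than Y537S-line regions, at 39.0% against 30.6% untreated, 54.1% against 44.8% with E2, 46.5% against 34.1% with Dox and 43.5% against 35.7% with Dox+E2. Both lay below the share of all merged regions, which was 51.2%, 60.6%, 56.3% and 56.6% in the same order. Both lay above that of regions open in 1 of the 4 libraries of the rule, at 12.4%, 19.9%, 18.6% and 18.4%. By peak names K303R went with the WT libraries of the rule, and the part of a shared run in this was not tested.

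**Figure D2:**
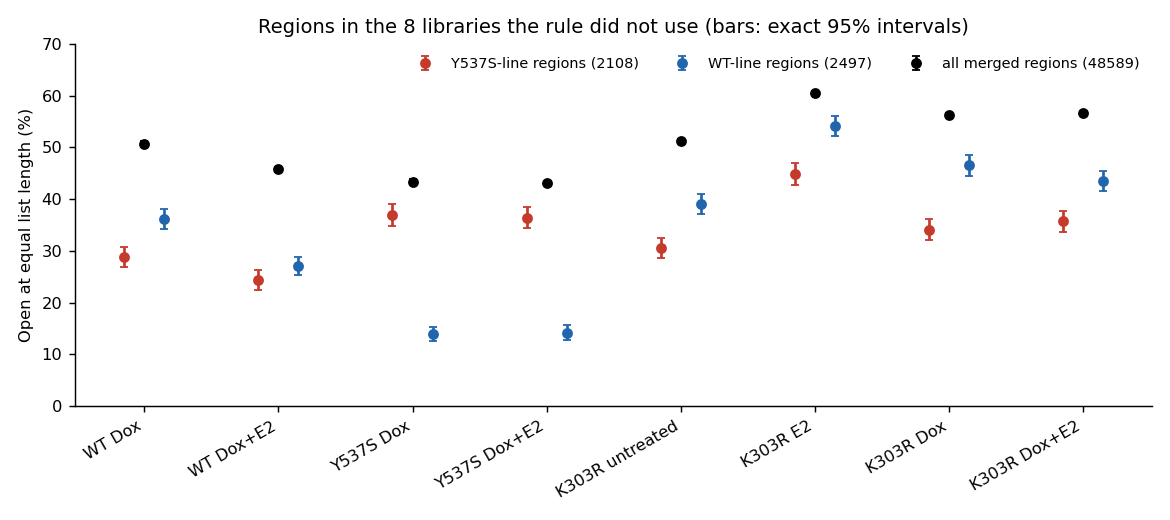
Percent of regions open at equal list length (vertical axis) in the 8 libraries that the rule did not use (horizontal axis), for Y537S-line, WT-line and all merged regions, with exact 95% intervals for counting error. WT-line regions dropped to 13.9% and 14.2% in the Y537S libraries with Dox, whereas Y537S-line regions stood at 36.9% and 36.4% there.

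By chromosome, the lines differed most on chromosome 6. Of its 2513 regions 240 (9.55%) were WT-line and 40 (1.59%) Y537S-line, so 9.61% of all WT-line and 1.90% of all Y537S-line regions were there, where 5.17% of all regions lie. The X chromosome had 7.83% WT-line (98) and 3.35% Y537S-line (42) of 1252 regions. The opposite held on chromosome 19, with 119 Y537S-line (6.43%) and 44 WT-line (2.38%) of 1851 regions, and on chromosome 14, with 141 (6.72%) and 72 (3.43%) of 2099. Without chromosome 6, 4.49% of regions were Y537S-line and 4.90% WT-line. With all peaks kept, 11.7% of chromosome 6 regions were Y537S-line and 1.22% WT-line, where 16.2% and 0.587% of all regions were, so the order of the 2 shares on chromosome 6 turned with the depth of the lists, as it did over all regions. Chromosome 14 then had 17.1% and 0.394% and chromosome 19 had 19.3% and 0.231%, the same order as at equal length. In the untreated pair alone the order turned on chromosome 14 (16.5% open in Y537S only, 21.1% in WT only) but not on chromosome 19 (21.5% and 14.1%), and over all regions the shares were 14.2% and 25.02%. With thinned pileups chromosome 6 kept its order, with 2.05% Y537S-line and 9.34% WT-line regions.

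**Figure D3:**
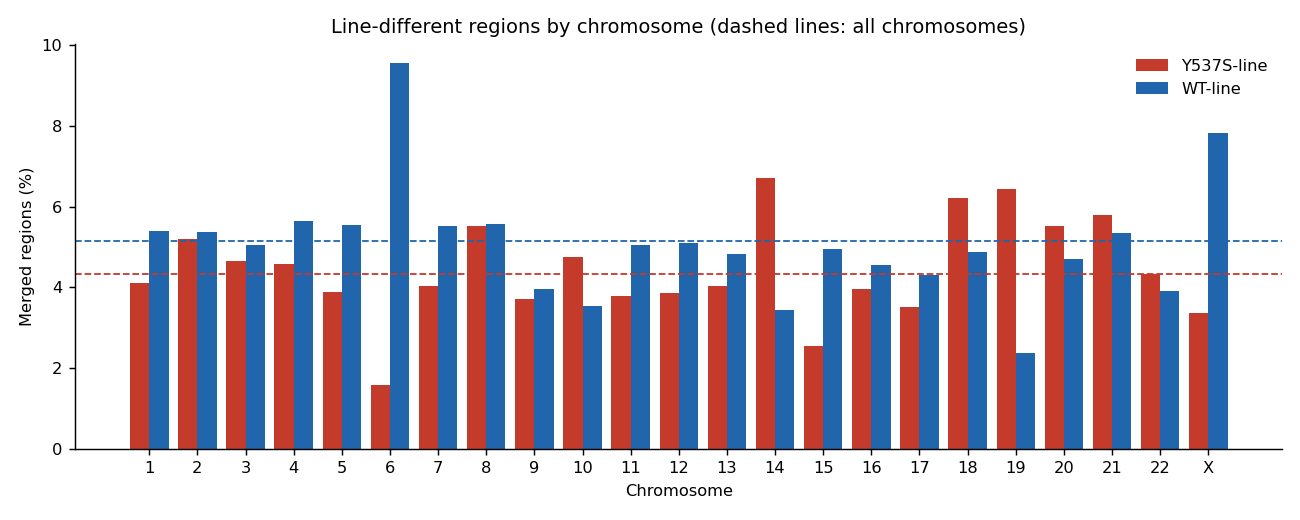
Percent of the merged regions of each chromosome (horizontal axis) that were Y537S-line or WT-line (vertical axis), with the percentages over all chromosomes as dashed lines. Chromosome 6 had 9.55% WT-line and 1.59% Y537S-line regions, and chromosomes 14 and 19 had more Y537S-line than WT-line regions.

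Regions open in all 4 libraries, which the rule does not call, gave the same picture in signal. The measure is log2(pileup + 1), Y537S minus WT, averaged over the untreated and E2 pairs and set to 0 at the median of the 19791 shared regions. It was −0.34 on chromosome 6 (901 regions, 86.6% of them below 0), with −0.33 in the untreated and −0.35 in the E2 pair. All 15 bins of 5 Mb on chromosome 6 with 20 or more shared regions lay below 0, between −0.40 and −0.21, so the lower signal ran along the chromosome. Chromosome 15 had −0.13, with 10 of 10 bins below 0. Chromosome X also had −0.13, from 3 of 4 bins. Chromosome 19 had 0.27 (807 regions, 21.7% below 0, 11 of 11 bins above 0) and chromosome 14 had 0.16 (943 regions, 15 of 15 bins above 0). Chromosome 2 was mixed, with a median of −0.04 over bins that ranged from −0.33 to 0.57. Its bins between 40000001 and 115000000 were all below 0 (−0.33 to −0.09), and the highest bin, from 130000001 to 135000000, held 8 Y537S-line regions (15.4%) and 0 WT-line regions of 52. The bin from 175000001 to 180000000 followed with 0.43, 6 Y537S-line and 0 WT-line regions. DNA copies were not measured, so copy number and accessibility cannot be told apart here.

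**Figure D4:**
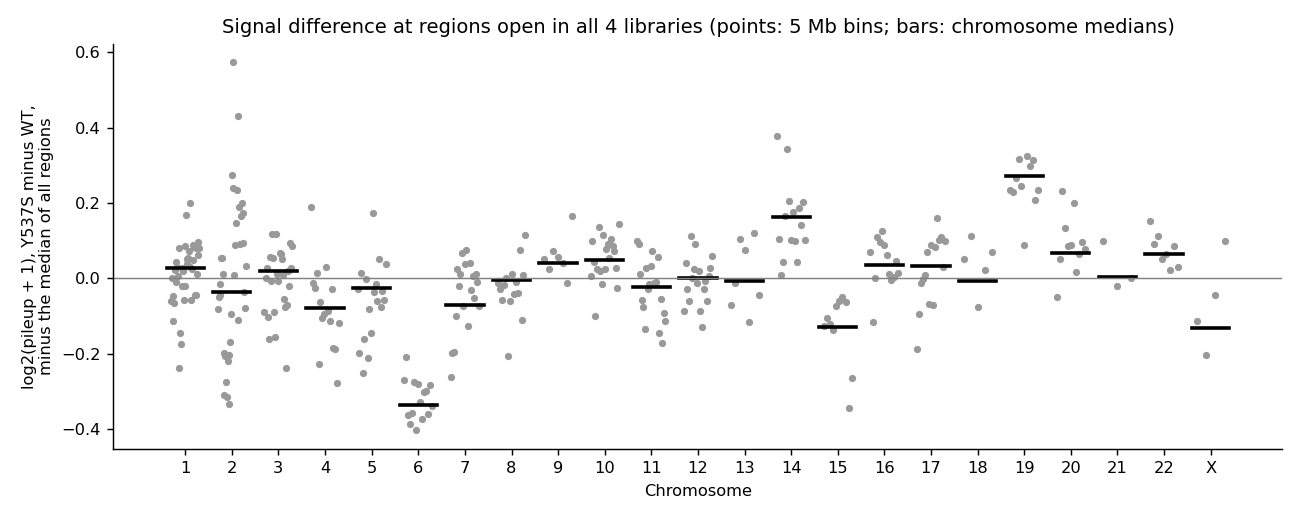
Difference in log2(pileup + 1), Y537S minus WT, at regions open in all 4 libraries (vertical axis, 0 at the median of all such regions) by chromosome (horizontal axis); points are bins of 5 Mb with 20 or more such regions in order along the chromosome, and bars are chromosome medians. All 15 bins of chromosome 6 lie below 0, all bins of chromosomes 14 and 19 above it, and chromosome 2 has both.

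The chromosome 6 difference was also present in the libraries with Dox. Over 458 regions of chromosome 6 open in all 12 libraries, each library's median log2 level relative to the mean of the 12 was 0.14 to 0.15 in the 4 WT, −0.26 to −0.23 in the 4 Y537S and 0.08 to 0.10 in the 4 K303R libraries. Y537S minus WT there was −0.37 in the pair with Dox and −0.39 in the pair with Dox+E2, in libraries the rule did not use. The WT libraries with Dox carried another peak-name prefix than those without. Chromosome 14 likewise separated the lines, at −0.06 to −0.01 in WT, 0.12 to 0.14 in Y537S and −0.10 to −0.07 in K303R. On chromosome 15 the ranges were 0.08 to 0.15 in WT and −0.04 to 0.00 in Y537S. K303R lay lower still there, at −0.11 to −0.07, so the lower level was not particular to Y537S and WT was the highest line. On chromosome 19 WT ranged from −0.25 to 0.00 and Y537S from 0.02 to 0.24, so the lines nearly touched, and in both lines the libraries with Dox lay above those without. K303R ranged from −0.10 to 0.03 on chromosome 19 and overlapped both. The 4 Y537S values lay outside the range of the 4 WT values on 8 of 23 chromosomes: below on 6, 7, 15 and X, above on 10, 14, 19 and 22. On chromosome 6, 13.8% of the 240 WT-line regions (33, exact 95% interval 9.66 to 18.8%) were also open in both WT and neither Y537S library with Dox, and 9.04% (7.89 to 10.3%) of those elsewhere, beside 11.8% of all chromosome 6 regions and 4.49% of all others.

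**Figure D5:**
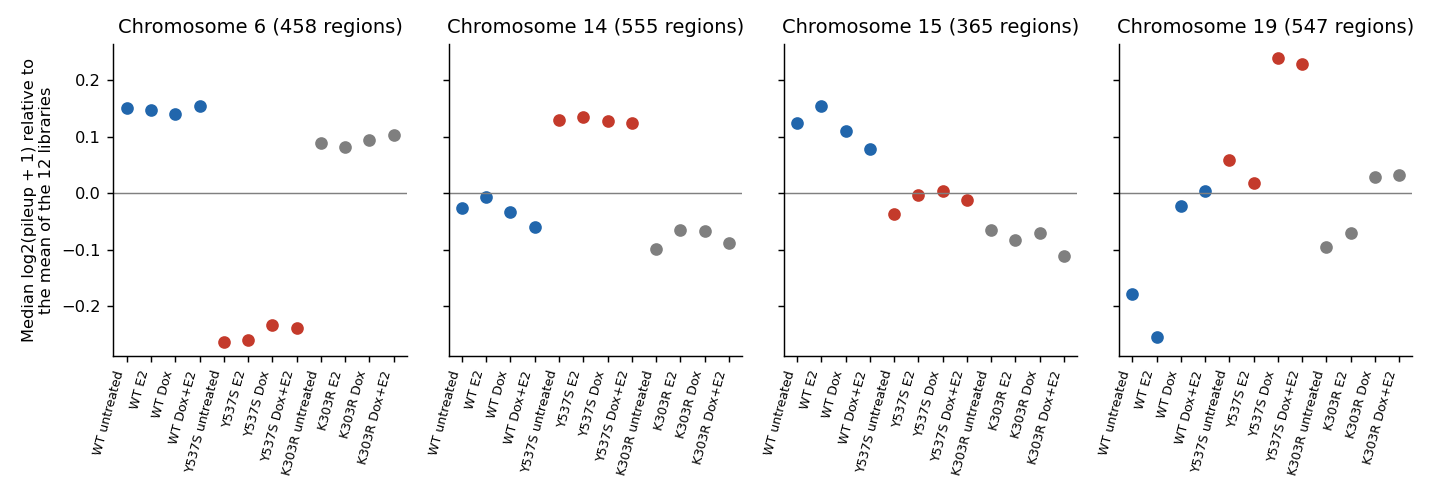
Median log2(pileup + 1) relative to the mean of the 12 libraries (vertical axis) on chromosomes 6, 14, 15 and 19, 1 point per library (horizontal axis), over regions open in all 12. On chromosome 6 the Y537S libraries lie at −0.26 to −0.23 and the WT libraries at 0.14 to 0.15, and on chromosome 19 the libraries of each line are spread out.

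The 5 Mb bins with the highest share of Y537S-line regions were on chromosomes 21 (45000001 to 50000000, 6 of 26), 19 (25000001 to 30000000, 5 of 23), X (70000001 to 75000000, 10 of 62), 2 (above) and 8 (55000001 to 60000000, 7 of 48). For WT-line regions they were on chromosomes 2 (80000001 to 85000000, 9 of 31), 6 (20000001 to 25000000, 14 of 58; 100000001 to 105000000, 5 of 24; 5000001 to 10000000, 13 of 64) and X (1 to 5000000, 5 of 25). The X bin from 70000001 also held 9 WT-line regions. All these bins are the extremes of 546 bins with 20 or more regions, and they rest on small counts. Over all merged regions 4.34% were Y537S-line and 5.14% WT-line, and no bin was tested against these shares.

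Members near genes were counted within 50 kb of a gene's span. Of 19970 protein-coding genes, 3393 (17.0%) had a Y537S-line region there and 3396 (17.0%) a WT-line region. The gene with the most Y537S-line regions was GSE1, which encodes a chromatin corepressor subunit, with 6 of 53 regions, followed by AMOTL1, a cell junction gene of the Hippo pathway (4 of 14), KAZN (4 of 20), SRGAP2, a gene of neuronal migration (4 of 15), and SYN3, a synapsin gene (4 of 20). RASSF3, a gene of the Ras-association domain family, had the most WT-line regions, 6 of 14. It was followed by DISC1 (5 of 29), LMNA, the gene of nuclear lamins A and C (5 of 25), BCAN, a brain proteoglycan gene (5 of 23), and AGBL4 (5 of 27). RASSF3, DISC1 and LMNA had 0 Y537S-line regions, and AMOTL1, KAZN and SYN3 had 0 WT-line regions. Over all merged regions 4.34% were Y537S-line and 5.14% WT-line, so with 14 to 29 regions a count of 0 does not set a gene apart.

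Genes of luminal and apocrine identity, the state of the parental cells, had more WT-line than Y537S-line regions at equal list length. Within 50 kb of 25 such genes, 19 of 282 regions were WT-line (6.74%) and 6 Y537S-line (2.13%), beside 4.87% and 4.12% of the 41563 regions near all protein-coding genes. The values were 6.30% and 2.36% without genes of chromosome 6, 4.02% and 2.41% with thinned pileups, and 0.726% and 12.5% with all peaks kept, where the order turned, as it did over all regions. With thinned pileups 4.35% of all merged regions were WT-line and 4.56% Y537S-line, so the WT-line share near luminal genes was then not above the background. At the 138 shared regions of this list the median signal difference was −0.10, and −0.09 over 128 without chromosome 6, beside 0.01 near all genes. The keratin genes KRT8 and KRT18, which encode the filaments of luminal epithelium and are neighbours, shared 3 WT-line regions. The one at the KRT8 start shown above (chr12:52926185-52926582) had pileups of 5 and 10 in WT and 5 and 8 in Y537S, which on the scaled measure are 55.6% and 47.6% against 13.9% and 19.5%. It had no peak in Y537S with Dox, 6 in WT Dox and 6 to 14 in K303R. The KRT8 start used here lies within the gene's span, because another of the 3 regions (chr12:52946387-52946602) is upstream of it and still inside KRT8. These values therefore describe that start only, which need not be the main KRT8 promoter. AGR2, a protein disulfide isomerase gene of secretory cells, had 3 WT-line regions, of which 1 (chr7:16810685-16810917, 5 and 8) was listed in no library outside WT untreated and WT E2. GRHL2, an epithelial transcription factor gene, also had 3. At TFAP2B, the AP-2 beta gene on chromosome 6 (chr6:50818541-50818982), the promoter had pileups of 5 and 9 in WT and 9 and 13 in Y537S, scaled 55.6% and 42.9% against 25% and 31.7%. In raw pileups Y537S was thus higher at TFAP2B, and only the scaled values put it lower. TFAP2A, its relative on the same chromosome, had 2 WT-line regions, the stronger (chr6:10429675-10429984) at 10 and 22 in WT and 11 and 14 in Y537S. The 14 in Y537S E2 was the lowest pileup kept there, so the call of this stronger region rests on the random draw among tied peaks. KRT7, KRT19, ERBB3, ELF3 and FGFR4 had Y537S-line regions, and that near KRT7 (chr12:52248663-52249524) had 21 and 24 in Y537S against no peak and 7 in WT.

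Nuclear receptor genes had 19 WT-line (6.57%) and 8 Y537S-line regions (2.77%) of 289, with 5.53% and 2.77% without chromosome 6, 3.83% and 3.07% with thinned pileups, and 0.353% and 15.2% with all peaks kept. Near all protein-coding genes the shares were 4.87% and 4.12%, and the thinned WT-line share of 3.83% was under the 4.35% of all merged regions. ESR2, the gene of estrogen receptor beta on chromosome 14, had 3 of the Y537S-line regions. The one with the highest pileups of any member lay beside ESR2, inside SYNE2, a nuclear envelope gene (chr14:64193784-64194593), and had 45 and 56 in Y537S, no peak in WT untreated and 7 in WT E2, which are scaled 125% and 137% against 33.3% in WT E2. With Dox it was 22 and 25 in Y537S and 10 and no peak in WT, and K303R ranged from 5 to 13. All Y537S pileups were above the others there, but on the scaled measure K303R E2 (76.5%) lay above Y537S Dox (71.0%). A second ESR2 region (chr14:64234690-64235412) had 16 and 25, and 45 and 58 with Dox, against 13 and 12 in WT with Dox. ESR1 itself, the gene of ER alpha on chromosome 6, had 1 region of each kind within its span. The Y537S-line one (chr6:151675803-151676110) had 13 and 16 and no peak in any WT library, and the WT-line one (chr6:151901126-151901453) had 5 and 9 in WT and 9 and 13 in Y537S. The 13 of the Y537S-line one was the lowest pileup kept in Y537S untreated, so its call rests on the random draw among tied peaks. RARB, a retinoic acid receptor gene, had 3 WT-line regions close together, and the start of RXRB, its partner retinoid X receptor gene on chromosome 6 (chr6:33199767-33200194), had 4 and 8 in WT and 12 and 12 in Y537S.

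Estrogen response genes showed no clear direction, with 4 Y537S-line (2.34%) and 5 WT-line (2.92%) of 171 regions near 30 genes and a median signal difference of 0.03 at 67 shared regions. With thinned pileups the shares were 4.14% and 2.76%, the opposite order. Near MYB, a transcription factor gene on chromosome 6 (chr6:135173626-135174433), pileups were 7 and 33 in WT untreated and E2 and 10 and 13 in Y537S, and 33 was the highest WT pileup of any WT-line region. WT E2 stood apart from WT untreated there. PDZK1, a scaffold gene of membrane transporters (chr1:145714528-145714921), had 15 and 20 in Y537S and no peak in any WT library. Androgen response genes had 6 Y537S-line (4.17%) and 5 WT-line (3.47%) of 144 regions near 23 genes. Thinned pileups gave 4.72% and 6.30%, again the opposite order. The promoter of STEAP4, a metalloreductase gene shown above (chr7:88306499-88307196), had 19 and 16 in Y537S, no peak in WT untreated and E2, 14 and 9 in Y537S with Dox and 5 in WT Dox. The start of ACSL3, an acyl-CoA synthetase gene (chr2:222859883-222860297), was WT-line with 5 and 12 against 11 and 11 in Y537S.

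Zinc finger genes of chromosome 19 followed their chromosome. Near 250 of these ZNF genes, many of which encode DNA-binding repressors, 24 of 392 regions were Y537S-line (6.12%) and 6 WT-line (1.53%), beside 6.43% and 2.38% for the whole chromosome. With thinned pileups the shares were 7.10% and 0.546%, and with all peaks kept 14.7% and 0.163%. Their 212 shared regions had a median difference of 0.30, beside 0.27 for the chromosome. The start was within 1 kb of a Y537S-line region for 9 of these genes and of a WT-line region for 1, ZNF576 (chr19:43595954-43596208), with pileups of 6 and 12 in WT and 10 and 13 in Y537S. At ZNF222 (chr19:44025141-44025479) pileups were 28 and 27 in Y537S against no peak and 6 in WT, and 34 and 22 with Dox against 13 and 11. ZNF766 (chr19:52269326-52270199) had 28 and 28 against no peak and 7, and 23 and 24 with Dox against 12 and 11. At ZNF91 (chr19:23395013-23395761) the values were 13 and 22 against no peak and 7, and 28 and 25 with Dox against 17 and 12. At these 3 starts every raw Y537S pileup was as high as or higher than every WT pileup except at ZNF91, where untreated Y537S (13) lay below WT Dox (17). The raw order leans to the deeper Y537S libraries, whose scaling medians were 31 to 41 against 9 to 21 in WT. Once scaled, Y537S E2 (22) and, narrowly, Y537S Dox+E2 (25) at ZNF91 also lay below WT Dox (17). The remaining 6 starts were those of ZNF317, ZNF491, ZNF44, ZNF865, ZNF419 and ZNF606, with 15 to 21 in the Y537S libraries of the rule.

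HOX genes, the homeobox genes of body patterning, had 3 Y537S-line and 0 WT-line regions of 39, 2 of them in the HOXC cluster and 1 near HOXB13. For these and the following lists the shares over all genes were 4.12% Y537S-line and 4.87% WT-line, and counts this small do not set a list apart from them. The HOXC region from chr12:54005940-54006394 had 19 and 15 in Y537S and no peak in WT untreated and E2. The clustered protocadherins, neuronal adhesion genes in tandem arrays, had 1 Y537S-line region of 14, at the start of PCDHAC2 shown above (chr5:140966334-140966951). It had 13 and 16 in Y537S, 7 and 5 with Dox and no peak in any WT library. Axon guidance and synaptic adhesion genes had 14 Y537S-line (5.43%) and 10 WT-line regions (3.88%) of 258. Their 81 shared regions had a median signal difference of 0.18, the highest of the lists with 20 or more shared regions other than the ZNF genes. The other lists had 2 to 5 Y537S-line and 1 to 9 WT-line regions, except growth factor receptors with 9 and 12 of 202 and olfactory receptors with 11 and 5 of 175. These were basal and myoepithelial, mesenchymal, interferon stimulated, cancer-testis, immediate early and housekeeping genes. Among immediate early genes the start of BATF, an AP-1 partner gene (chr14:75521423-75521642), was WT-line at 4 and 9 against 7 and 14 in Y537S, and its pileups with Dox were 26 and 17 in WT and 82 and 49 in Y537S. The 14 in Y537S E2 was the lowest pileup kept there, so the BATF call rests on the random draw among tied peaks. FOS had 1 region of each kind.

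At promoter windows (250 bases before to 50 after a start), 141 overlapped a Y537S-line and 65 a WT-line region, of 15811. The median number of CG dinucleotides was 28 and 25, beside 27 in 7072 windows open in all 4 libraries and 22 in all. Among the 20 windows in Y537S-line regions without a WT peak it ranged from 3 to 47, with a median of 19.5. Motifs were searched on both strands as letters only. GGGCGG, the core of the GC box, was in 71.6% of Y537S-line, 58.5% of WT-line, 75.0% of shared and 58.5% of all windows. TGANTCA, the AP-1 site, was in 6.38%, 7.69%, 3.42% and 5.76%. GGTCA, part of the site of many nuclear receptors, was in 30.5%, 36.9%, 33.8% and 35.8%. TATAAA was in 7.09%, 3.08%, 4.60% and 9.64%, AGATAA in 7.80%, 6.15%, 3.72% and 7.55%, and TGTTTAC in 0.709%, 0%, 2.06% and 2.62%, where GGTCA can overlap other matches. With 9 and 5 windows behind the AP-1 shares, differences of this size were not tested.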

How the data were processed

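ATAC-seq was measured in 12 libraries of MDA-MB-453, of which 4 entered the comparison. The submitters' processing notes name Bowtie2, SAMtools, Picard, MACS2 and FastQC and build hg38. Tool versions, settings and read shifting: not given in the sources used here. The authors deposited 1 peak list per library, called without pooling, which holds for each summit a score, a fold enrichment (a ratio of summit pileup plus 1 to background plus 1), a −log10 p-value and a −log10 q-value, all of them the authors' values. The deposited score was not used; the deposited q-value (−log10 q) ranked the named regions and called regions only in the alternatives that set a minimum for it. Pileups were recovered from the deposited fold ratios, which were whole to within 0.000709 of a read; backgrounds were 0.143 to 0.336 in the 4 libraries.

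Peaks on chromosomes 1 to 22 and X were used, and 54 to 114 on other sequences per library were left out. Each list was cut to 47190 peaks by −log10 p, with ties at the cut (4168 to 7458 peaks in the 3 longer lists) broken at random (fixed seed), and peaks sharing 1 bp or more were merged. Gene spans and starts came from RefSeq tables of GRCh38.p14 (19970 protein-coding genes, 15811 with a start). Named regions are, per direction, the 12 without a peak in the full lists of the other line with the largest smaller −log10 q, 8 such within 1 kb of a gene start, the 5 genes with most members, the 5 bins of 5 Mb with the highest percent, and list or marker genes with a member within 1 kb of the start; other list genes were named after their values were seen. Members and lists were chosen with earlier results of these data known. Alternatives covered list length, −log10 q, overlap, thinning of pileups (kept at 5 or more), single libraries, distances and windows. The counting was tested on simulated data. Shares carry exact (Clopper-Pearson) 95% intervals. Python 3.11.15, numpy 2.4.6, pandas 2.3.3, scipy 1.17.1 and matplotlib 3.10.9 were used.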

Additional observations from a re-analysis of the deposited data

How the results depend on the processing

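The signal differences of chromosomes 6, 14 and 19 kept their sign under the alternatives run for them (all peaks, thinned pileups, each pair alone). The order of Y537S-line and WT-line counts did not keep its direction under all alternatives. The counts depend on depth: Y537S-line and WT-line regions numbered 15840 and 574 with all peaks, 15779 and 294 with peaks of −log10 q 5 and up, 13469 and 34 with 10 and up, and 7937 Y537S-line with peaks covering 50% of a region. Leaving out each library in turn gave 4053 to 4194 and 3594 to 10255. The Y537S-line share near a gene start was 6.62% with all peaks, 10.7% at the length of the shortest of the 12 lists, 11.03% at a −log10 q of 10, 25.7% with 50% cover, 14.3% thinned, 10.96% at 2.5 kb and 6.78 to 11.4% with a library left out. The WT-line share was 2.61% with all peaks, 2.04% and 2.94% at a −log10 q of 5 and 10, 8.47% thinned, 10.9% at 2.5 kb and 5.295 to 7.75% with a library left out. The share of Y537S-line regions repeated with Dox was 20.5% with all peaks, 21.0% and 27.98% at a −log10 q of 5 and 10, 14.2% with 50% cover, 11.3% thinned and 6.44 to 7.75% with a library left out. For WT-line regions it was 4.70%, 4.42%, 2.94%, 7.17% and 4.82%, then 3.95 to 10.32%, and 6.78% with ties at the cut dropped. Chromosome 6 had 11.7% Y537S-line and 1.22% WT-line regions with all peaks, 8.36% and 34.9% in the untreated pair alone, 6.49% and 26.1% in the E2 pair alone, and a signal difference of −0.26 thinned. Dropping or keeping ties, leaving out chromosome 6 and thinning by chromosome and list were chosen after seeing the data. No paired analysis was possible because each group holds 1 library, so no fit with a block could be made; lines are matched by treatment, and the untreated and E2 pairs are given separately. The lowest pileups, 3 in WT untreated and 4 in the others, limit what absence can show.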
